A study of Mus musculus with 8 samples.

Results

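A set of 10 genes that move calcium in heart muscle cells was followed across 4 groups of embryonic mouse heart tissue. They are Atp2a2, Pln, Sln, Ryr2, Trdn, Jph2, Casq1, Casq2, Cacna1c and Slc8a1, taken from the count table by symbol as genes of the sarcoplasmic reticulum and of calcium transport. All 10 members were found among the 22869 gene symbols of the count table, and all 10 passed the filter on low counts, which kept 14940 genes. Libraries of total RNA were sequenced from dissected atrioventricular (AV) cushions, the swellings in the AV canal that form the heart valves, and from ventricles of C57BL/6 embryos at E12.5, a stage counted in days after conception. Each tissue was sampled from embryos with the genotype label wild type and from embryos labelled NfatC1+/-; KLF2fl/fl, called mutants here, with 2 libraries in each of the 4 groups. The design text names KLF2 fl/fl mice beside Nfatc1 KLF2 fl/fl mice, so the animals labelled wild type may carry floxed Klf2 alleles. The labels give no other allele and do not state what NfatC1+/- denotes, such as a null copy or a recombinase driven from Nfatc1, a gene of the endocardium. Whether each library came from its own embryo or from a pool is not stated either, so the p-values measure the spread among these 8 libraries, part of which may be technical.

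In a heart muscle cell the action potential opens L-type calcium channels in the surface membrane, and the calcium that enters opens ryanodine receptors on the sarcoplasmic reticulum, the internal calcium store. The released calcium starts contraction. For relaxation it is pumped back into the store by the SERCA pump, which small membrane proteins hold in check, or carried out of the cell by sodium-calcium exchange. In the early embryo the store is still immature, and AV canal muscle conducts slowly and keeps features of pacemaker tissue while the ventricle matures into fast-conducting working muscle.

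Klf2, the gene targeted in the mutants, was low in all 4 mutant libraries, at 0.625 to 1.96 CPM (read counts put on one common library size), against 9.19 to 17.3 CPM in the 4 wild type libraries. The libraries held between 18955733 and 26579215 counts with 1 table entry kept per symbol, and 1 CPM stood for at least 18.7 reads. All cushion libraries contained heart muscle RNA. The summed level of 15 contractile genes was 36550 to 51610 CPM in cushions and 46430 to 106100 CPM in ventricles (96560 and 106100 CPM in replicate 1 of the mutant and wild type ventricles). AV canal muscle markers summed to 274.8 to 332.4 CPM in cushions and 25.9 to 51.1 CPM in ventricles, ventricular markers to 7175 to 10050 CPM and 16030 to 19640 CPM, atrial markers to 2145 to 3423 CPM and 3452 to 5429 CPM, and cushion mesenchyme markers to 7874 to 16550 CPM and 1553 to 4559 CPM. In such bulk samples, fewer muscle cells and less RNA of a gene per muscle cell cannot be told apart.

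Promoter windows are shown for 3 members, those with the GATA letters searched below, to place the sequence upstream of a member that was lower in cushions in both genotypes (Pln), of the abundant exchanger gene (Slc8a1), and of a member that did not pass between tissues on the scale of all genes (Casq1). Each runs from 250 bases before to 50 bases after an annotated gene start, from RefSeq on build GRCm38.p6, written 5′ to 3′ on the strand of the gene. Capitals mark matches on either strand to GATAA, to CATTCC, the MCAT letters, or to AAGTG, letters bound by NKX2-5.
Pln, chr10:53337436-53337735, plus strand: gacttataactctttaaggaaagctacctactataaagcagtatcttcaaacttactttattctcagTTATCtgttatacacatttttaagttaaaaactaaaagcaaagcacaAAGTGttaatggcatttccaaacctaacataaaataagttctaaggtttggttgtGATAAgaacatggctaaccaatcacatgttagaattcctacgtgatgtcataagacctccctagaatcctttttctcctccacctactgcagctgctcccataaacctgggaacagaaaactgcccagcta
Slc8a1, chr17:81738338-81738637, minus strand: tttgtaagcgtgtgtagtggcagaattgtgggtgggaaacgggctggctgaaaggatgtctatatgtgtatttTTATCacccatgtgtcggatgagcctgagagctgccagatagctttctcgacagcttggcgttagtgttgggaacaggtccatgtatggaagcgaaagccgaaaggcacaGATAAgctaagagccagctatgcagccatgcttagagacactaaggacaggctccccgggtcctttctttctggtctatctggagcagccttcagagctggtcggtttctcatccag
Casq1, chr1:172219846-172220145, minus strand: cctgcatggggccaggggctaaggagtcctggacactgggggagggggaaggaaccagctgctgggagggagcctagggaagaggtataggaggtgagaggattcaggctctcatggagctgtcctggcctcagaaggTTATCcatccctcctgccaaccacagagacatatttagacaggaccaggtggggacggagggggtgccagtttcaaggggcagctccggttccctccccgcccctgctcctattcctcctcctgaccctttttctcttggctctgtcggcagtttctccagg
The Pln window, at 36.0% GC, holds 2 matches to GATAA and 1 to AAGTG. The Slc8a1 window, at 50.7% GC, and the Casq1 window, at 60.3% GC, hold 2 and 1 matches to GATAA. The tables gave 10 windows for 7 members (Pln, Ryr2, Casq1, Casq2, Slc8a1, Cacna1c and Jph2), and of these windows 3 hold GATAA, 4 hold AAGTG, 0 hold CATTCC and all 10 hold the E-box letters CANNTG. The 2 Jph2 windows overlap and share 1 AAGTG match, which is counted in both. Of the 32851 mouse windows of the same length, 25.4% hold GATAA, 46.4% AAGTG, 14.7% CATTCC and 72.3% CANNTG. The MEF2 and CArG box consensus motifs were found in 0 of the members' windows and in 0.557% and 1.63% of all windows. E-box matches may overlap the other motifs, and a match here is a run of letters, not a measured binding site.

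The members spanned a wide range of levels. To compare genes, levels were expressed per kilobase of the longest annotated transcript. The annotation used for the counts is not given, so the counted entry may be of another length. The order of members per kilobase, and the size of the ratios and shares given below, rest on this length. Pln, at 662.7 to 1008 CPM per kb, and Atp2a2, at 528.1 to 711.8 CPM per kb, were the highest in the ventricle. Pln lay above Atp2a2 in replicate 2 of both ventricle groups and below it in replicate 1. Slc8a1 followed at 189.7 to 277.6, Casq2 at 109.2 to 133.6, Casq1 at 79.0 to 96.1, Ryr2 at 43.5 to 98.6, Trdn at 40.2 to 54.2, Jph2 at 37.0 to 54.7 and Cacna1c at 8.59 to 16.5 CPM per kb in the 4 ventricle libraries. Sln, at 0.0339 to 0.775 CPM per kb, was far below all of these. The ranges of Ryr2, Trdn and Jph2 overlapped, as did those of Casq1 and Ryr2, and these neighbours in the order do not differ beyond their spread. In cushions Atp2a2, at 405.0 to 505.7 CPM per kb, lay above Pln, at 155.2 to 286.0 CPM per kb, in every cushion library, and the ranges of Casq1 (71.0 to 119.8) and Casq2 (67.4 to 123.4) overlapped.

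**Figure D1:**
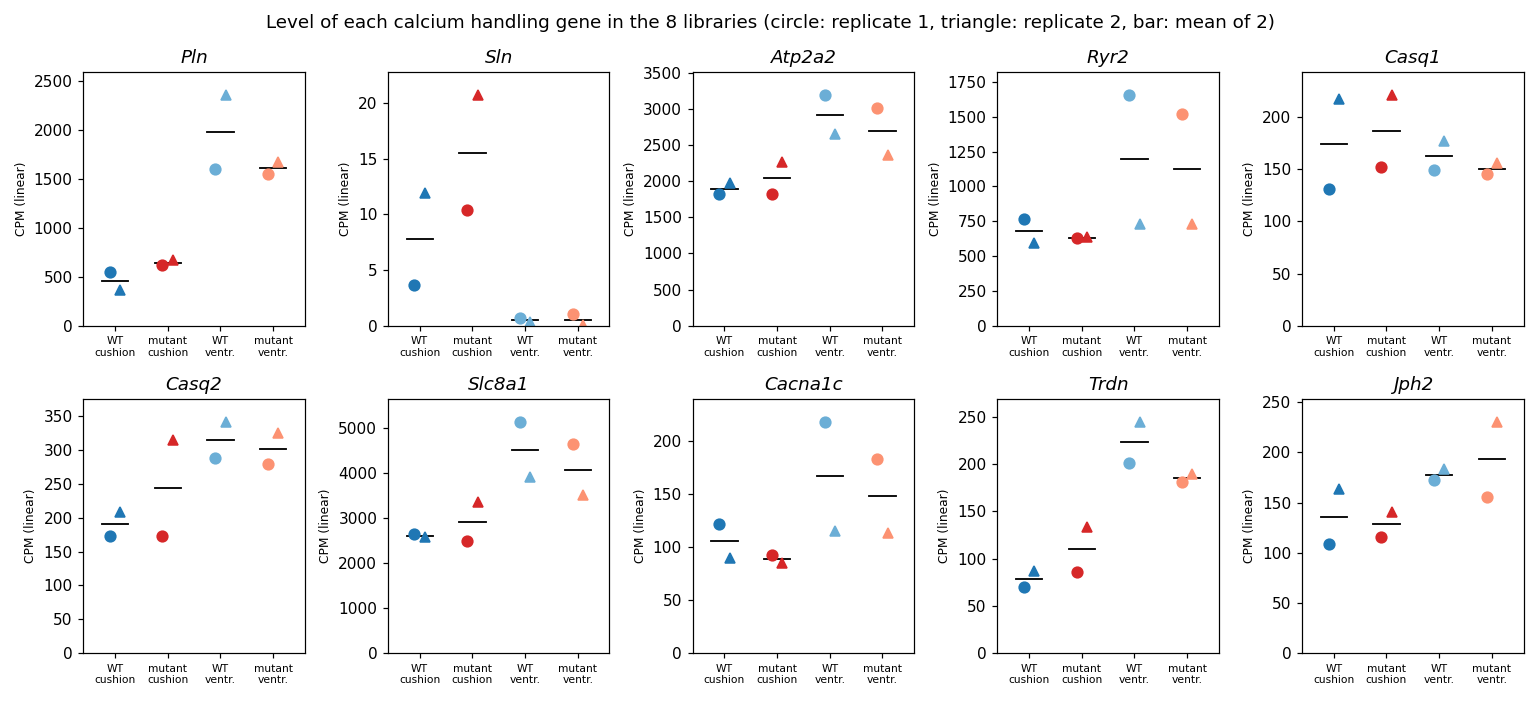
Level of each member in every library, in CPM on linear axes that start at 0, with 1 panel per gene, circles for replicate 1, triangles for replicate 2 and bars for the mean of 2. Pln and Trdn sit lower in all 4 cushion libraries than in any ventricle library, Sln shows the opposite order, and Casq1 overlaps between tissues.

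The comparison of cushions with ventricles describes how calcium handling RNA differs between the 2 regions of the embryonic heart. In wild type, Pln, Trdn and Slc8a1 were lower in cushions, by 4.35-fold, 2.84-fold and 1.73-fold. That is 3 of 10 members called lower with edgeR's quasi-likelihood test at an adjusted p of 0.05, where 10.6% of all 14940 genes were called lower and 23.1% in either direction. Sln was called higher, as were 1861 genes in all. It had only 1 to 25 reads in each ventricle library. Its call here and in every count of called members is therefore not taken as support for a difference. In mutants, Pln was lower in cushions by 2.50-fold, 1 of 10 members called lower where 3.26% of all genes were, and Sln was called higher with 6.16% of all genes (9.42% in either direction). The median log2 difference, cushion minus ventricle, was -0.69 over the members in wild type and -0.54 in mutants, against 0.01 over all genes tested in each. With the replicate number as a block, 7 members were lower in wild type cushions and 0 higher, where 20.1% of all genes were lower and 21.2% higher (41.4% in all), and 4 were lower and 1 higher in mutant cushions, where 10.5% of all genes were lower and 13.4% higher (23.9% in all). With a correction for GC content and transcript length and no block, 6 members were lower and 1 higher in wild type cushions, where 14% of all genes were lower and 10.4% higher (24.4% in all), and 4 were lower and 1 higher in mutant cushions, where 7.84% were lower and 6.88% higher (14.7% in all). With the block and this correction together, 9 of 10 members passed in each genotype, 8 lower and Sln higher, and Casq1 was the exception in both, while 41.3% and 31.8% of all genes passed. The 2 groups of libraries did not overlap for 7 members in wild type and 8 in mutants, against 65.3% and 53.1% of all genes.

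Atp2a2 encodes SERCA2, the pump that refills the store of the heart. Its level was 1817 and 1980 CPM in the wild type cushions, 1820 and 2269 CPM in the mutant cushions, 3193 and 2652 CPM in the wild type ventricles and 3014 and 2369 CPM in the mutant ventricles. Every ventricle library was above every cushion library, yet the difference narrowly missed the threshold in wild type, at a log2 difference of -0.62 ± 0.20 (SE; adjusted p = 0.0515), and missed it in mutants at -0.40 ± 0.20 (adjusted p = 0.256). It passed in wild type with the block (adjusted p = 0.00975), and with the GC and length correction without the block (adjusted p = 0.0121). In mutants it passed with both together (adjusted p = 0.0178) but with neither alone (adjusted p = 0.111 and 0.0759).

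Pln encodes phospholamban, which slows SERCA2 until it is phosphorylated during adrenergic stimulation. It was at 545.0 and 362 CPM in the wild type cushions and 623 and 667 CPM in the mutant cushions, against 1594 and 2353 CPM in the wild type ventricles and 1547 and 1674 CPM in the mutant ventricles. Every cushion library was lower than every ventricle library. The log2 difference was -2.12 ± 0.25 (SE) in wild type (edgeR adjusted p = 0.00134) and -1.32 ± 0.24 in mutants (adjusted p = 0.0138). The wild type call held without any 1 of the 8 libraries. The mutant call ended without mutant cushion replicate 1 or mutant ventricle replicate 2. Of all 26 alternative settings, 4 lost the mutant call, and the log2 difference over the 26 was -1.56 to -1.26. Set beside the pump it restrains, the ratio of Pln to Atp2a2 per kilobase was 0.577 and 0.352 in wild type cushions and 0.658 and 0.565 in mutant cushions. In ventricles it was 0.959 and 1.71 in wild type and 0.987 and 1.36 in mutants, so that all 4 ventricle libraries held a higher ratio than any cushion library. This ratio was formed after the values were seen and has no test.

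Sln encodes sarcolipin, a smaller relative of phospholamban that also inhibits SERCA and is a known gene of atrial muscle in mouse. Its reads were few: 78 and 302 counts in the wild type cushions, 211 and 477 in the mutant cushions, 13 and 7 in the wild type ventricles and 25 and 1 in the mutant ventricles. In CPM these were 3.66 and 11.95, 10.4 and 20.7, 0.695 and 0.370, and 1.02 and 0.0447. All cushion libraries were above all ventricle libraries. With 1 to 25 reads in each ventricle library, the size of the difference is poorly fixed. The log2 difference was 3.87 ± 1.06 (SE; adjusted p = 0.0483) in wild type and 4.81 ± 1.03 (adjusted p = 0.0418) in mutants. The wild type call lies close to the threshold and ended with the block (adjusted p = 0.0642) and without any 1 of the 4 cushion or 2 wild type ventricle libraries (adjusted p = 0.0644 to 0.197, the last without wild type cushion replicate 2). The mutant call ended without any 1 of the 4 mutant libraries or wild type ventricle replicate 1 (adjusted p = 0.0503 to 0.136), and its log2 difference was 8.24 without mutant ventricle replicate 1, which leaves 1 read in that group. The summed atrial marker level was lower in cushions than in ventricles, as given above. Of the 7 atrial markers, 3 were called higher in wild type cushions, where 1861 of all 14940 genes were. The calls of the other atrial markers are not given here, so this count does not describe the list as a whole. The part of atrial markers in the Sln level was not tested.

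Among genes of calcium release, only Trdn passed between tissues with neither the block nor the GC and length correction. It encodes triadin, which ties calsequestrin to the ryanodine receptor. Its level was 70.3 and 87.0 CPM in wild type cushions, 86.1 and 133.6 CPM in mutant cushions, 201.8 and 244.5 CPM in wild type ventricles and 181.2 and 189.3 CPM in mutant ventricles. All cushion libraries were below all ventricle libraries in both genotypes. The log2 difference was -1.50 ± 0.22 (SE; adjusted p = 0.00318) in wild type and -0.75 ± 0.22 (adjusted p = 0.0645) in mutants. The mutant difference passed with the block (adjusted p = 0.000525), and with the GC and length correction without the block (adjusted p = 0.0361). The wild type call held without any 1 of the 8 libraries (adjusted p = 0.00141 to 0.0412), and without mutant cushion replicate 2 the mutant difference was -1.11 and passed (adjusted p = 0.0195).

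Ryr2, the cardiac ryanodine receptor through which the store empties, varied more between replicates in ventricles than in cushions. It was at 764.6 and 595.1 CPM in wild type cushions, 629.9 and 635 CPM in mutant cushions, 1657 and 731.6 CPM in wild type ventricles and 1517 and 732.1 CPM in mutant ventricles. Replicate 1 of each ventricle group stood high while replicate 2 was near the cushions, so the wild type groups overlapped. The log2 difference of -0.81 ± 0.46 (SE) in wild type and -0.83 ± 0.46 in mutants did not pass (adjusted p = 0.241 and 0.323), and with the GC and length correction it passed in both without the block (-0.95 and -0.84, adjusted p = 0.00654 and 0.0147) and with it (adjusted p = 0.000826 and 0.00214).

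Jph2 encodes junctophilin-2, which holds the store close to the surface membrane. It was at 108.3 and 163.3 CPM in wild type cushions, 115.5 and 141.1 CPM in mutant cushions, 172.3 and 183.1 CPM in wild type ventricles and 156.0 and 230.2 CPM in mutant ventricles. Within each genotype its cushion libraries were below its ventricle libraries, by a log2 difference of -0.39 ± 0.24 (SE; adjusted p = 0.272) in wild type and -0.59 ± 0.24 (adjusted p = 0.172) in mutants. With the block it passed in both (adjusted p = 0.0192 and 0.00516). With the GC and length correction, the wild type difference was -1.03, and it passed without the block too (adjusted p = 0.0183), while the mutant difference passed only with the block (adjusted p = 0.102 without it).

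The calsequestrins are the calcium-binding proteins inside the store, with Casq2 the heart form and Casq1 best known from fast skeletal muscle. Casq2 was at 173.3 and 208.8 CPM in wild type cushions, 172.4 and 315.5 CPM in mutant cushions, 288.5 and 341.4 CPM in wild type ventricles and 279.1 and 325.1 CPM in mutant ventricles. It separated the tissues in wild type but not in mutants, where the second cushion replicate lay among the ventricles. The log2 difference was -0.72 ± 0.27 (SE; adjusted p = 0.0855) in wild type, which passed with the block (adjusted p = 0.00222), and -0.31 ± 0.27 (adjusted p = 0.533) in mutants.

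Casq1 was at 131.1 and 217.8 CPM in wild type cushions, 152.7 and 221.3 CPM in mutant cushions, 148.9 and 177.5 CPM in wild type ventricles and 145.9 and 155.6 CPM in mutant ventricles. Its wild type tissues overlapped, with a log2 difference of 0.10 ± 0.26 (SE; adjusted p = 0.817), and in mutants it was 0.31 ± 0.26 (adjusted p = 0.516). Per kilobase, Casq1 made up 51.2% and 59.1% of the calsequestrin RNA in wild type cushions and 55.1% and 49.3% in mutant cushions, against 41.7% and 41.9% in wild type ventricles and 42.0% and 39.8% in mutant ventricles. This share was higher in every cushion library and was formed after the values were seen, with no test. The skeletal muscle markers Myod1, Myf5 and Pax7 lay between 0 and 0.17 CPM in all libraries, and the summed skeletal marker level was 12.9 to 38.6 CPM in cushions and 41.5 to 66.1 CPM in ventricles.

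At the surface membrane, Slc8a1 encodes NCX1, the sodium-calcium exchanger that removes calcium from the cell and that the embryonic mouse heart needs in order to beat. It was at 2637 and 2583 CPM in wild type cushions, 2481 and 3359 CPM in mutant cushions, 5126 and 3911 CPM in wild type ventricles and 4648 and 3502 CPM in mutant ventricles. Every ventricle library was above every cushion library. The log2 difference was -0.79 ± 0.23 (SE; adjusted p = 0.0389) in wild type and -0.48 ± 0.23 (adjusted p = 0.235) in mutants. The wild type call ended with the GC and length correction without the block (adjusted p = 0.157) and without any 1 of the 4 wild type libraries. With the block it held (adjusted p = 0.00583). Of all 26 alternative settings, 8 lost the wild type call, and the log2 difference over the 26 was -0.97 to -0.59.

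Cacna1c, the pore of the L-type channel Cav1.2, was at 121.4 and 89.8 CPM in wild type cushions, 92.4 and 85.1 CPM in mutant cushions, 217.7 and 115.5 CPM in wild type ventricles and 183.1 and 113.1 CPM in mutant ventricles. As with Ryr2, replicate 1 was the high one in both ventricle groups, and the wild type groups overlapped. The log2 difference of -0.66 ± 0.35 (SE) in wild type and -0.74 ± 0.35 in mutants did not pass (adjusted p = 0.210 and 0.245) but passed with the block (adjusted p = 0.00867 and 0.00757). It also passed with the GC and length correction without the block, at -0.87 and -0.82 (adjusted p = 0.00174 and 0.00329).

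Because contractile gene levels differed between the dissections, the members were also set against the geometric mean of the 15 contractile genes. Pln, Trdn and Sln passed between the wild type tissues, and Slc8a1 did not. As before, the Sln call is not taken as support for a difference, given its few ventricle reads. On this scale the log2 difference in wild type was -1.73 ± 0.27 (SE; adjusted p = 3.23e-09) for Pln, -1.11 ± 0.25 (adjusted p = 9.53e-05) for Trdn and 4.27 ± 0.96 (adjusted p = 0.0133) for Sln, and these 3 members passed where 32.3% of all genes did (29.7% higher and 2.64% lower). The other 7 lay between -0.36 for Slc8a1 and 0.48 for Casq1 (adjusted p = 0.122 or above). This scaling moved the median of all genes to 0.42 in wild type and 0.66 in mutants, so a value on this scale is relative to contractile genes and not to genes at large. In mutants Pln was lower, at -0.68 ± 0.26 (adjusted p = 0.0227), Sln was higher at 5.42 ± 0.95 (adjusted p = 0.00338), and Casq1 was higher at 0.93 ± 0.25 (adjusted p = 0.00113), where 52.2% of all genes passed (51.4% higher and 0.877% lower). Trdn, at -0.13 ± 0.25, did not pass in mutants (adjusted p = 0.646). The fit on this scale drew the spread of most genes fully to the trend over all genes. Its p-values are therefore too small for genes that vary more than this trend. With only 6 contractile genes shared by atrial and ventricular muscle, the Pln difference in mutants did not pass (adjusted p = 0.124). On that scale of 6 genes Casq1 was higher in wild type cushions, at 0.80 ± 0.24 (adjusted p = 0.00643), where 54.6% of all genes passed. Scaled to the 15 genes, the Pln difference in mutants did not pass without any 1 of the 4 mutant libraries, at -0.76 to -0.60. The Sln difference in wild type did not pass without wild type ventricle replicate 1 or 2 (adjusted p = 0.114 and 0.0818).

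**Figure D2:**
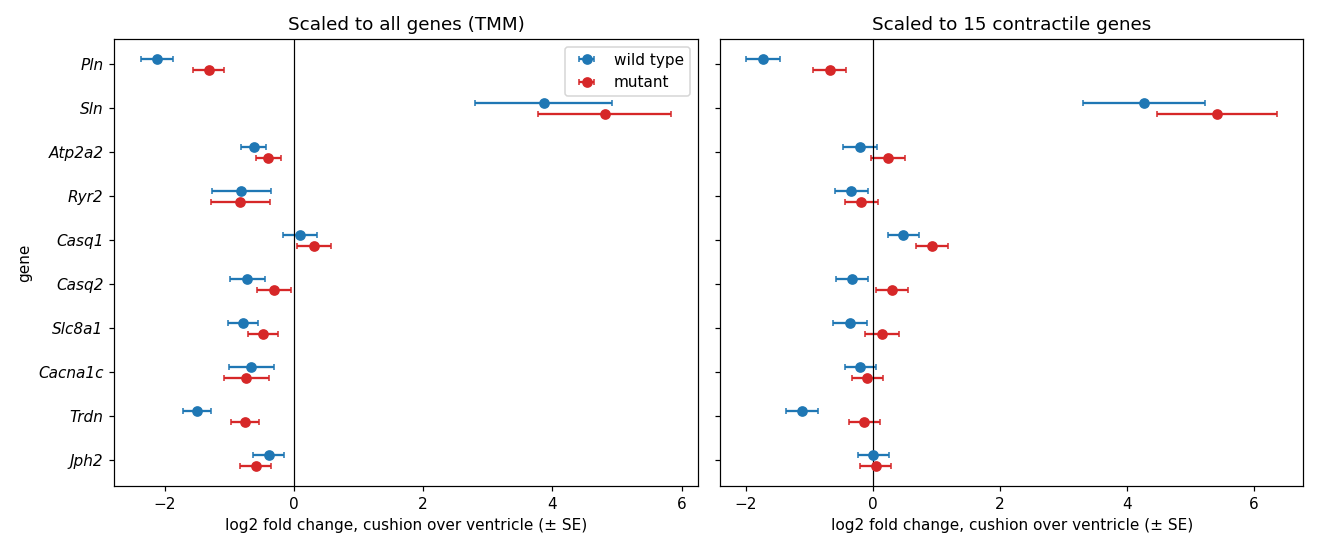
Log2 fold change of each member, cushion over ventricle, in wild type and in mutants, with bars of 1 SE from the edgeR fits, scaled to all genes (left) and to 15 contractile genes (right). On the left Sln lies at 3.87 and 4.81, Casq1 at 0.10 and 0.31 and the other 8 members below 0. On the right Pln in both genotypes and Trdn in wild type remain the farthest below 0.

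The ratios by library show the same order. For Pln the log2 ratio to contractile genes was -1.21 and -1.91 in wild type cushions, -0.82 and -0.97 in mutant cushions, -0.28 and 0.57 in wild type ventricles and -0.28 and -0.16 in mutant ventricles, with no overlap between tissues. For Atp2a2 it was 0.52 and 0.54, 0.73 and 0.80, 0.73 and 0.74, and 0.69 and 0.35 in the same groups, so that cushions lay below ventricles in wild type and above them in mutants, all within 0.35 to 0.80. For Jph2 it lay between -3.58 and -3.02 in all 8 libraries, with tissues overlapping.

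**Figure D3:**
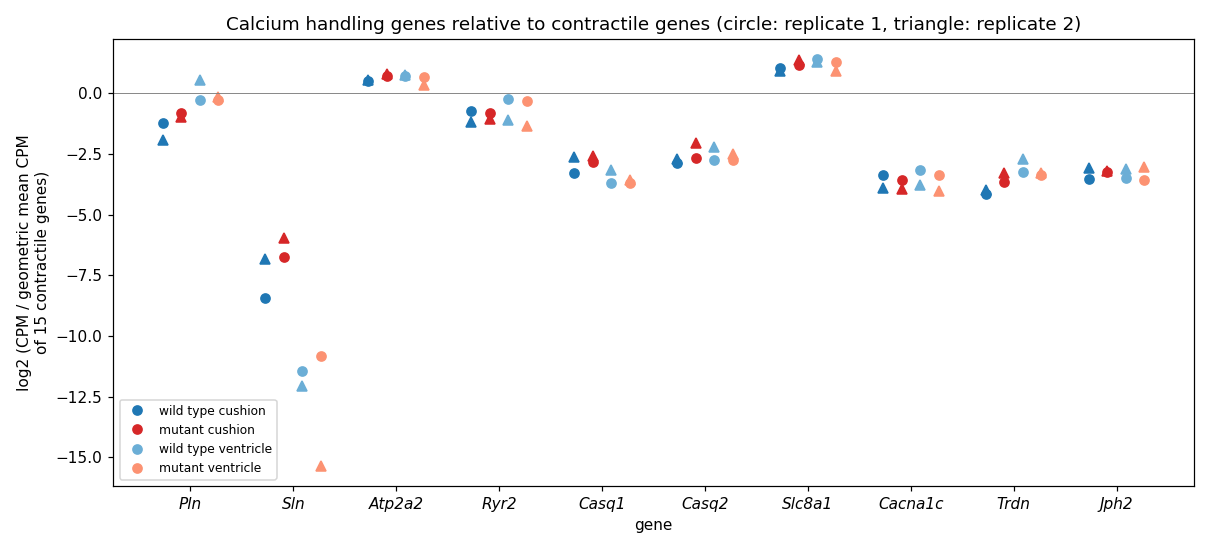
Log2 ratio of each member's CPM to the geometric mean CPM of 15 contractile genes, by group, with circles for replicate 1 and triangles for replicate 2. Pln lies between -1.91 and -0.82 in cushions and between -0.28 and 0.57 in ventricles, while Atp2a2 and Jph2 overlap between tissues.

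Other genes of calcium handling were counted in 4 lists, to be read against the 10.6% of all genes called lower and the 1861 of 14940 called higher in wild type cushions, or the 3.26% and 6.16% in mutants. Of 13 genes for other subunits and regulators of L-type and T-type channels, 8 were called higher and 2 lower in wild type cushions, with a median log2 difference of 1.24, and 4 higher and 0 lower in mutants. Cacna1g, the T-type pore gene of pacemaker and AV conduction tissue, was at 30.4 and 28.5 CPM in wild type cushions and 1.80 to 2.78 CPM in the 4 ventricle libraries, a log2 difference of 3.77 ± 0.23 (SE; adjusted p = 0.000179). The accessory subunit genes Cacna2d2 and Cacnb3 were higher by 2.10 ± 0.27 and 1.44 ± 0.20 (adjusted p = 0.00252 and 0.00265), while Cacna2d1, the alpha2delta subunit gene of working myocardium, was lower by -0.86 ± 0.17 (adjusted p = 0.00908). Cacna1g is itself on the list of AV canal markers, all 7 of which were called higher in wild type cushions.

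Of 19 other genes of the store, 1 was higher and 4 were lower in wild type cushions. Hrc, for a calcium-binding protein of the store lumen, and Jph1, a junctophilin best known from skeletal muscle, had log2 differences of -1.21 ± 0.14 and -1.32 ± 0.19 (adjusted p = 0.00114 and 0.00291), and Tmem38b, for a potassium channel of the store, of -0.96 ± 0.23 (adjusted p = 0.0199). Ryr3, a ryanodine receptor of low level in the heart, was higher by 1.46 ± 0.26 (adjusted p = 0.00834). Hrc, Jph1 and Ryr3 passed in mutants too (adjusted p = 0.00209, 0.00584 and 0.0103). Of 6 tested genes for calcium extrusion only Slc8a3, for another sodium-calcium exchanger, passed, and it was higher in wild type cushions by 2.04 ± 0.26 (adjusted p = 0.00178). Of 20 regulator genes 1 was higher and 6 lower, among them Camk2d, the main calcium-calmodulin kinase gene of the heart, at -1.03 ± 0.15 (adjusted p = 0.0033), Prkar2a, a protein kinase A subunit gene, at -0.77 ± 0.13 (adjusted p = 0.00471), and Camk2a at -1.04 ± 0.17 (adjusted p = 0.00501). The one called higher, Bin1, which shapes membrane tubules, had a difference of 0.75 ± 0.21 (adjusted p = 0.0331).

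Within 3 pairs of related genes, the share of the gene that was lower in ventricles was larger in cushions. These pairs were chosen after their values were seen and have no test. Per kilobase, Ryr3 made up 7.09% and 12.9% of the Ryr2 and Ryr3 sum in wild type cushions and 8.83% and 10.7% in mutant cushions, against 1.63% to 2.90% in the 4 ventricle libraries. Cacna1d, the L-type pore gene Cav1.3 of pacemaker cells, made up 44.0% and 52.8% of the Cacna1c and Cacna1d sum in wild type cushions and 46.6% and 41.8% in mutant cushions, against 13.5% to 17.7% in ventricles. Slc8a3 made up 0.597% to 1.05% of the Slc8a1 and Slc8a3 sum in cushions and 0.109% to 0.192% in ventricles. These shares separated the tissues in every library, and they do not show which cells hold either form.

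The comparison of mutants with wild type asks how calcium handling RNA differs between the genotypes in each tissue. In cushions 0 of 10 members passed, where 0% of all genes did with edgeR. In the same test 0 members and 1699 genes had an unadjusted p under 0.05, and both DESeq2 and limma-voom called 0 members. With the replicate block 129 genes passed, 0.863% of all, of which 0 were members. Pln had a log2 difference, mutant minus wild type, of 0.51 ± 0.24 (SE; adjusted p = 0.450, and 0.201 with the block), and it was the only member whose cushion libraries did not overlap between genotypes, while 48.4% of all genes did not overlap. Trdn differed by 0.48 ± 0.22 (adjusted p = 0.440, and 0.0826 with the block), Casq2 by 0.35 ± 0.27 (adjusted p = 0.580) and Sln by 0.99 ± 0.80 (adjusted p = 0.615). The differences were 0.11 for Atp2a2, 0.10 for Casq1, 0.16 for Slc8a1, -0.10 for Ryr2, -0.08 for Jph2 and -0.25 for Cacna1c, each less than its SE (adjusted p = 0.778 or above). With the GC and length correction the differences of Pln and Trdn were 0.12 and 0.11, and those of Ryr2 and Jph2 changed sign, to 0.08 and 0.37.

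Mutant cushion replicate 2 had the highest level among the 4 cushion libraries for 7 of 10 members, all but Ryr2, Cacna1c and Jph2. The share of all genes at their highest in that library was not computed, so this count has no background to be read against. In the same library 4 of 6 ventricular markers, 2 of 7 atrial markers and 4 of 15 contractile genes were at their highest among the cushions. So were 8 of 10 skeletal muscle markers, 4 of 8 endothelial and endocardial markers and 2 of 5 smooth muscle markers. The counts were 0 of 7 for AV canal, 0 of 8 for cushion mesenchyme, 0 of 6 for epicardial and 1 of 6 for blood markers. Its skeletal muscle markers summed to 38.6 CPM (12.9 to 38.6 CPM over the 4 cushion libraries). Its endothelial and endocardial markers summed to 1661 CPM (1335 to 1661 CPM). Its ventricular markers summed to 8509 CPM (7175 to 10050 CPM over the 4 cushion libraries) and its atrial markers to 3423 CPM (2145 to 3423 CPM), while its AV canal and mesenchyme sums, of 274.8 and 7874 CPM, were the lowest of the 4. The part of these markers in the members' levels was not tested. With the block and without mutant cushion replicate 2, 0 members and 1.59% of all genes passed. With the block, Trdn and Casq2 passed without mutant cushion replicate 1 (adjusted p = 0.0116 and 0.0164, with 5.84% of all genes), and Trdn also passed without mutant ventricle replicate 1 (0.0481, with 4.18%) and without replicate 2 of that group (0.0447, with 3.55%). Each of these fits leaves 1 group with a single library, which is assumed to vary like the others.

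In ventricles 0 of 10 members passed between genotypes, where 0% of all genes did with edgeR. Of the members 0, and of all genes 342, had an unadjusted p under 0.05, and DESeq2 and limma-voom again called 0 members. With the block 0 members and 0.00669% of all genes passed, which is 1 gene. The log2 difference was -0.29 ± 0.24 (SE) for Pln and -0.27 ± 0.21 for Trdn (adjusted p = 0.998 for both), and Trdn was the only member without overlap, where 27.7% of all genes had none. Casq2 differed by -0.06 ± 0.27 and Sln by 0.04 ± 1.33. The differences were -0.12 for Atp2a2, -0.09 for Ryr2, -0.12 for Casq1, -0.15 for Slc8a1, -0.17 for Cacna1c and 0.12 for Jph2, each less than its SE. With the GC and length correction Pln was at -0.09 and Trdn at -0.002.

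Pln and Trdn thus had positive values in cushions and negative ones in ventricles, and the interaction of genotype with tissue tests this contrast directly. It was 0.80 ± 0.34 (SE; adjusted p = 0.415) for Pln and 0.75 ± 0.30 (adjusted p = 0.415) for Trdn, and 0 of 10 members passed, where 0% of all genes did. With the GC and length correction these fell to 0.21 and 0.12. The interaction was 0.94 for Sln, 0.41 for Casq2, 0.31 for Slc8a1, 0.23 for Atp2a2, 0.21 for Casq1, -0.02 for Ryr2, -0.08 for Cacna1c and -0.20 for Jph2. Pln and Trdn were the 2 members with an unadjusted p under 0.05, as 1776 genes in all had, and DESeq2 and limma-voom called 0 members. With the block the adjusted p was 0.163 for Pln and 0.0852 for Trdn, and 0% of all genes passed. With the block and without mutant cushion replicate 1, Trdn and Casq2 passed (adjusted p = 0.00815 and 0.0291, with 8.6% of all genes), and without mutant ventricle replicate 1, Trdn and Sln did (0.021 and 0.0487, with 7.83%). Among the other calcium genes, only Cacna1g passed between genotypes, in cushions and with the block: it was at 17.0 and 13.4 CPM in mutant cushions, a log2 difference of -0.95 without the block (adjusted p = 0.435) and of -0.96 with it (adjusted p = 0.00991).

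**Figure D4:**
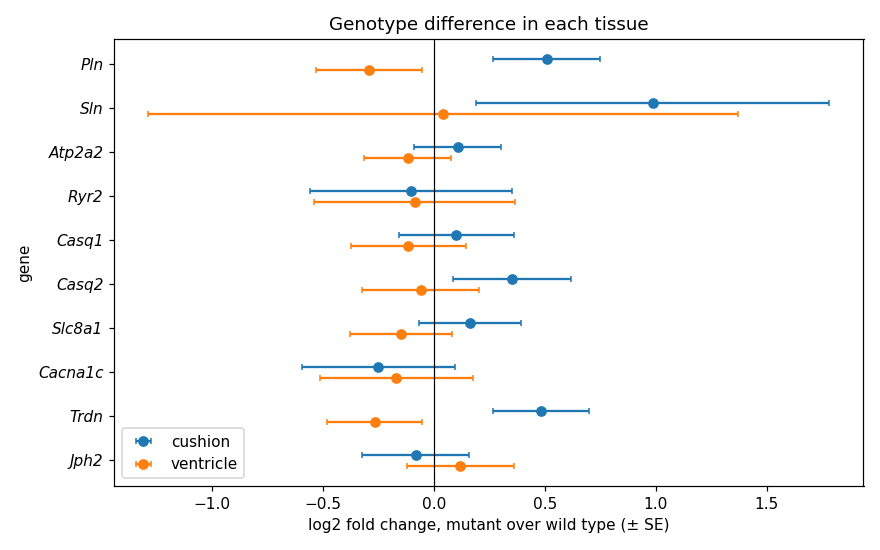
Log2 difference of each member, mutant minus wild type, in cushions and in ventricles, with bars of 1 SE from the edgeR fit. Pln and Trdn lie at 0.51 and 0.48 in cushions and at -0.29 and -0.27 in ventricles, and 0 of the 10 members passed in either tissue.

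The members also differed in how their 2 replicates compared. The log2 ratio of replicate 1 to replicate 2 was 0.36, -0.01, 1.18 and 1.05 for Ryr2 in wild type cushions, mutant cushions, wild type ventricles and mutant ventricles, and 0.43, 0.12, 0.91 and 0.69 for Cacna1c. For Slc8a1 it was 0.03, -0.44, 0.39 and 0.41. These are the 3 members with the longest transcripts, of 16814, 13162 and 18464 bases. For Casq1, Casq2, Trdn and Jph2, with transcripts of 1847 to 4514 bases, the ratio was negative in all 4 groups, with Casq1 at -0.73, -0.54, -0.25 and -0.09, Casq2 at -0.27, -0.87, -0.24 and -0.22, Trdn at -0.31, -0.63, -0.28 and -0.06, and Jph2 at -0.59, -0.29, -0.09 and -0.56. The other 3 members of that size or shorter were of both signs: Pln at 0.59, -0.10, -0.56 and -0.11, Sln at -1.68, -0.99, 0.77 and 3.03, and Atp2a2 at -0.12, -0.32, 0.27 and 0.35. Over all 837 genes with a transcript above 8 kb the median ratio was 0.31, 0.21, 0.50 and 0.51 in the same groups. For the 4231 genes of 4 to 8 kb, the class of Trdn, Jph2 and Atp2a2, it was 0.09, 0.09, 0.116 and 0.154. The negative ratios of Trdn and Jph2 thus had the opposite sign to the median of their class. It was -0.028, 0.009, -0.084 and -0.035 for the 5881 genes of 2 to 4 kb, and -0.11, -0.06, -0.17 and -0.20 for genes of up to 2 kb. The part of transcript length in the members' ratios was not tested.

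**Figure D5:**
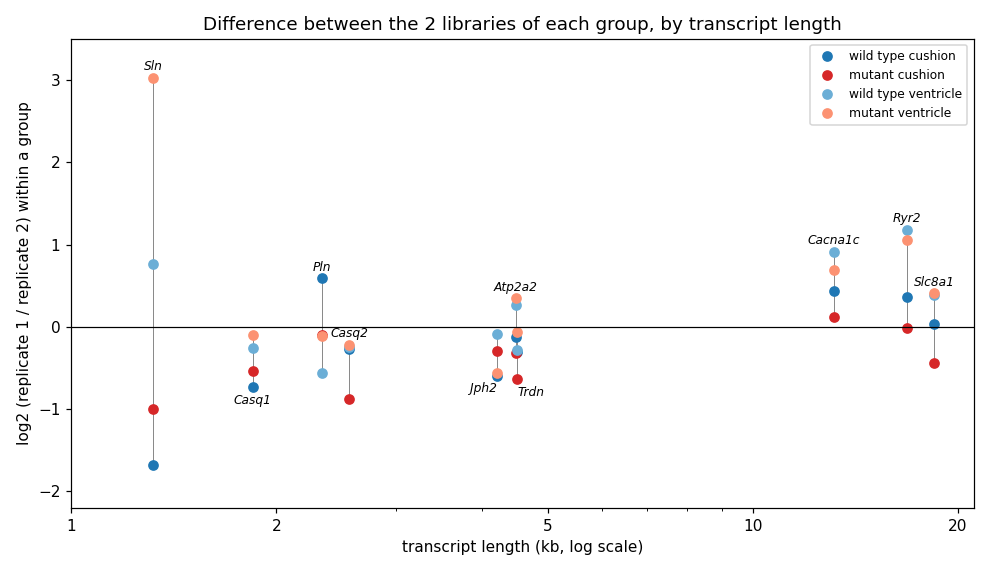
Log2 ratio of replicate 1 to replicate 2 for each member (points are the 4 groups, joined by a line per gene), against the length of its longest transcript in kb on a log axis. Ryr2 and Cacna1c reach 1.18 and 0.91 in wild type ventricles, while Casq1, Casq2, Trdn and Jph2 lie below 0 in all 4 groups. The widest spread is that of Sln, from -1.68 to 3.03.

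Across the 8 libraries, the genes whose log2 CPM most resembled each member were named by Pearson r among 9706 other genes with a mean of at least 10 CPM, as a description, since all share the libraries and the difference between tissues. Nearest to Pln were Hey2, a transcription factor gene of ventricular muscle, with r = 0.997, Hdac9 with 0.995 and Stradb with 0.992. Nearest to Trdn were 5430417L22Rik with 0.996, and Rbm24, a muscle splicing factor gene, and Gja1, the connexin 43 gene, both with 0.995. Nearest to Atp2a2 was another member, Slc8a1, with 0.991. The first neighbour was Il1r1 for Sln (0.985), Nhsl2 for Ryr2 (0.991), Acsl5 for Casq2 (0.989), Palm2 for Cacna1c (0.988) and Exosc7 for Jph2 (0.986). For Casq1 the closest gene, Armcx2, reached only 0.930.

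For 4 members the counts are uncertain, because the strand setting of the count is not given in the sources used here and another annotated gene overlaps an exon on the opposite strand: Cep85l and Gm47644 at Pln, Gm43361 at Atp2a2, Gm17224 at Casq1, and AC122399.1 and Gm11096 at Slc8a1. Cep85l and the other overlapping genes have no entry of that name in the count table.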

How the data were processed

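The deposited values are raw counts per table entry for 8 libraries of total RNA, whole numbers that the authors gave in 1 table, deposited as 8 identical copies. Per the labels' protocols, tissue was kept in RNAlater until genotyping, RNA was isolated with a Qiagen micro kit, and libraries were made with a TruSeq stranded total RNA kit after Ribo-Zero depletion. Bowtie 0.12.7 and build mm9 come from the submitters' processing notes. Which program counted the reads, on which annotation and with which strand setting, is not given in the sources used here. Of 28644 entries and 22869 symbols, 3705 symbols had several entries, and the entry with the largest total was kept (among the members, Pln, Atp2a2, Cacna1c, Slc8a1 and Jph2 had several). A symbol split over transcripts can therefore be undercounted.

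The main test was that of edgeR 4.0.16 (R 4.3.3), with TMM scaling, filterByExpr, a robust quasi-likelihood fit of all 8 libraries in 4 groups from the sample titles, two-sided tests, and Benjamini-Hochberg adjustment over 14940 genes at 0.05. These steps were run on simulated counts drawn independently for each library. The simulation held none of the shared replicate or transcript length differences seen in these libraries. Levels are CPM after TMM scaling. Errors of log2 differences are SE from the quasi-likelihood fit of all 8 libraries, with 2 libraries a group. The spread in this fit is shared by the 4 groups and drawn towards that of other genes. Replicates of a group were compared by a chi-square test over genes, whose statistic was 45.5 to 118.1 times its degrees of freedom, so none was a duplicate. Alternatives were DESeq2 1.42.0, limma-voom (limma 3.58.1), a replicate block, a GC content and length spline from GENCODE vM21 transcripts (98.3% of symbols matched), other choices of entry, no filter, contractile scaling, only the groups compared, and leaving out each library; contractile scaling of the genotype comparisons was added after the data were seen. The labels share replicate numbers 1 and 2 across groups without stating what they mark. The deviation of replicate 1 from its group mean correlated in all 6 pairs of groups, with r across genes of 0.341 to 0.522, so the numbers were taken to pair the libraries, on the evidence of the data alone, and values with the block are given where they change a call.

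Members and lists were chosen with earlier results of these data known. All members are named in every comparison, as are up to 4 genes with the smallest p in the wild type tissue comparison from each other calcium list, those passing between genotypes, and the nearest profiles. Promoter windows are from RefSeq.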

Additional observations from a re-analysis of the deposited data

How the results depend on the processing

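The number of members called between tissues moved most. In the main fit it was 4 in wild type (23.1% of all genes) and 2 in mutants (9.42%). With DESeq2 it was 6 (23.4%) and 3 (12.1%), and with only the groups compared 6 (24.5%) and 1 (4.41%). In wild type it was 4, and 7 with the replicate block, 7 with the GC and length correction, 9 with both, and 2 to 8 when 1 library was left out, with or without the block. In mutants it was 2, and 5 with the block, 5 with the GC and length correction, 9 with both, 1 with limma-voom, 1 with only the groups compared, and 0 to 7 when 1 library was left out. Between genotypes it was 0 under every setting but those that left out 1 library with the block, which gave 0 to 2 in cushions (0.164% to 5.84% of all genes) and 0 to 2 for the interaction (0% to 8.6%). Members without overlap in the ratio to contractile genes numbered 5 in wild type (64.1% of all genes) and 6 to 9 with 1 library left out (75.8% to 87.8%), and 4 in mutants (79.3%), 7 with 6 contractile genes (85.7%) and 5 to 8 with 1 library left out (85.6% to 92.8%), where fewer libraries overlap by construction. Values near 0 changed sign, and the cause was not tested. Casq1 between wild type tissues was -0.017 with the block and the GC and length correction, and -0.32 to 0.41 with 1 library left out. The tissue difference of Casq2 in mutants was -0.81 to 0.062 with 1 library left out. Between cushion genotypes, under 3 settings (GC and length correction, this together with the block, and the contractile scale), Ryr2 was 0.08, 0.082 and 0.026 and Jph2 0.373, 0.363 and 0.053. Between ventricle genotypes the first 2 of these settings gave 0.072 and 0.052 for Slc8a1 and 0 and -0.001 for Jph2, and Sln was -0.97 with limma-voom and -0.038 on the contractile scale. For the interaction Ryr2 was 0.011 with the block, and the same 3 settings gave 0.103, 0.105 and 0.159 for Ryr2, 0.058, 0.059 and 0.111 for Cacna1c and 0.374, 0.365 and 0.037 for Jph2, while the first 2 gave -0.029 and -0.031 for Slc8a1. With 1 library left out, with or without the block, the cushion genotype difference was -0.15 to 0.33 for Atp2a2, -0.55 to 0.33 for Ryr2, -0.23 to 0.51 for Casq1, -0.15 to 0.72 for Casq2, -0.21 to 0.50 for Slc8a1, -0.52 to 0.042 for Cacna1c and -0.36 to 0.24 for Jph2. In ventricles it was -0.57 to 0.082 for Pln, -3.92 to 1.54 for Sln, -0.33 to 0.072 for Atp2a2, -0.71 to 0.65 for Ryr2, -0.31 to 0.093 for Casq1, -0.17 to 0.082 for Casq2, -0.36 to 0.091 for Slc8a1, -0.56 to 0.39 for Cacna1c and -0.19 to 0.38 for Jph2. The interaction was -0.465 to 4.998 for Sln, -0.027 to 0.46 for Atp2a2, -0.75 to 0.60 for Ryr2, -0.13 to 0.63 for Casq1, -0.088 to 0.78 for Casq2, -0.066 to 0.65 for Slc8a1, -0.64 to 0.30 for Cacna1c and -0.49 to 0.13 for Jph2. Relative to contractile genes in wild type, Jph2 was 0 with the block, Atp2a2 0.11 and Cacna1c 0.10 with 6 contractile genes, and with 1 library left out Ryr2 was -0.72 to 0.18, Cacna1c -0.49 to 0.16 and Jph2 -0.26 to 0.23. In mutants, with 6 contractile genes, Ryr2 was 0.022, Cacna1c 0.13 and Trdn 0.079, and with 1 library left out Ryr2 was -0.61 to 0.43, Casq2 -0.042 to 0.58, Slc8a1 -0.039 to 0.36, Cacna1c -0.39 to 0.30, Trdn -0.34 to 0.044 and Jph2 -0.21 to 0.36. Sln between wild type tissues also did not pass with limma-voom (adjusted p = 0.108) or without a filter (0.0942), nor in mutants (0.0736 and 0.0861) or with only the groups compared (0.0603). With 2 libraries a group, small differences cannot be told from the spread, and for Sln the 1 to 25 ventricle reads limit the size of the fold.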
